A study of Mus musculus with 9 samples.

Results

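The probes described here carry a RefSeq transcript identifier in the deposited scanner files of a mouse heart microarray study. They were chosen as the non-control probes whose systematic name starts with NM_ or NR_, and the 15 reference-gene probes that have 20 spots each were left out. This gave 108 of 59709 probes, and these were the single-spot probes that could be named, since the files pair the others with no gene. Of the 108 probes, 103 target an mRNA (NM) and 5 a non-coding RNA (NR). A total of 101 probes matched 97 gene symbols in the RefSeq gene table of assembly GRCm38.p6, which was used for names and gene order only, and 7 probes are called here by their accession. The set was not built around a pathway. It holds 34 predicted genes, 13 vomeronasal receptors, 4 chemokines and 4 histone H2A genes, and 23 of the probes are Y-linked and 11 X-linked.

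Total RNA of cardiac tissue was hybridised to 9 arrays, with 3 arrays in each of 3 groups. The WT group carries the strain label B6SV129F1 wild-type, with no treatment or sham operation named. The TAC group shares this strain label and underwent TAC surgery, an abbreviation that in heart research usually stands for transverse aortic constriction. The CnA group carries the strain label Myh6-CnA, a name used for mice in which the promoter of the cardiac myosin heavy chain gene Myh6 drives a calcineurin A transgene in cardiomyocytes, so that this model acts through 1 cell type. The labels give no age, sex, time after surgery or identity of the animals, and do not say whether the CnA line shares the background of the WT mice. P-values therefore measure the spread between these samples, which may be technical.

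Pressure overload and active calcineurin are both long-established ways to make a mouse heart hypertrophic. Calcineurin is a calcium-dependent phosphatase that sends NFAT transcription factors to the nucleus. In bulk cardiac tissue, a transcript can change through more RNA per cell or through more cells of the type that makes it, and the arrays cannot tell these apart. None of the 133 different symbols on the lists of cardiac, cell type and non-coding RNA genes could be named on the array, so the labelled tissue could not be checked against its markers.

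The arrays were not equally bright as scanned, with 75th percentiles of 427.3 to 454.3 intensity units on the WT arrays, 262.5 to 279.5 on the TAC arrays and 283.0 to 300.2 on the CnA arrays. All values below are log2 of the processed signal minus the array's own 75th percentile, called the scaled log2 signal, so that 0 is the 75th percentile of the array. A difference of 1 on this scale is a 2-fold difference, and only values of the same probe are compared. A probe was called changed when limma gave a Benjamini-Hochberg adjusted p under 0.05 over the 44223 probes tested. After scaling, the median tested probe lay 0.32 higher in TAC than in WT and 0.22 higher in CnA than in WT, so that a change of this size did not set a transcript apart. All 3 WT arrays lay in slide row 1, together with TAC replicate 1 and CnA replicate 3, and the other 4 arrays lay in row 2. CnA replicate 3 came from a second scan, at the slide position that WT replicate 1 held in the first. Within the first scan no CnA array therefore shared a row with a WT array.

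The RefSeq transcripts measured on all arrays were called at shares near those of all such probes. A total of 73 transcripts cleared the scanner software's background test on all 9 arrays. Of these, 48 were called in TAC against WT, which is 65.8% beside 61.4% of all probes measured on all arrays. They were 36 higher and 12 lower, where 42.9% and 18.5% of all such probes were higher and lower. In CnA against WT, 44 were called, or 60.3% beside 57.4%. They were 33 higher and 11 lower, where all such probes gave 38.1% and 19.4%. In CnA against TAC, 14 were called, or 19.2% beside 17%, with 8 higher and 6 lower where all such probes gave 9.43% and 7.59%. Of all 96 transcripts tested, 61 (63.5%), 66 (68.8%) and 28 (29.2%) were called in these comparisons, beside 60.1%, 56.8% and 17.4% of all tested probes. The 96 include transcripts that met the filter in 1 group alone, so the higher shares in the last 2 comparisons support nothing by themselves. The median change of the 73 was 0.4, 0.27 and -0.09 in these comparisons, and that of all probes on all arrays was 0.34, 0.24 and -0.06. With slide row as a block, 37, 41 and 14 of the 73 were called. Within row 1, where a single TAC array and a single CnA array met the 3 WT arrays and were assumed to vary like them, 12 and 13 were called, and for CnA this also sets the second scan against the first. Without CnA replicate 3, so within the first scan, 49, 44 and 12 of the 73 were called. On the scaled log2 signal, no RefSeq transcript was called in opposite directions in the models, which happened for 0.606% of all tested probes. This depended on the scaling. Under quantile normalization between arrays, NM_001199947 was called lower in TAC (-0.71, limma adjusted p = 0.00063) and higher in CnA (0.64, adjusted p = 0.0012). The dim Y-linked Sly was near the threshold in both, at -0.83 (limma adjusted p = 0.049) and 0.85 (adjusted p = 0.045).

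**Figure D1:**
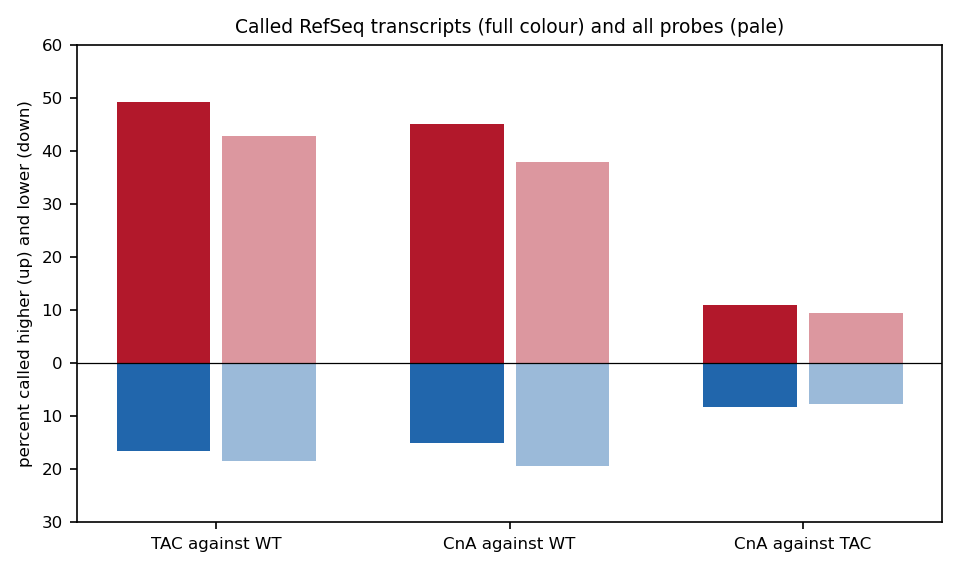
Percent of the 73 RefSeq transcripts (full colour) and of all 36902 probes (pale) well above background on all 9 arrays that were called higher (red, upward) or lower (blue, downward) in each comparison. The full and pale bars are close in each comparison, at 65.8% and 61.4% in TAC, 60.3% and 57.4% in CnA, and 19.2% and 17% between the models for both directions together.

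Among the transcripts measured on all arrays, the largest rises in both models were those of the CCL21 chemokine probes. CCL21 is the chemokine that draws dendritic cells and naive T cells carrying the receptor CCR7 towards lymphatic vessels and lymph nodes, and mice carry several near-identical copies of its gene. The Ccl21b signal was 5.82, 5.20 and 5.12 on the WT arrays, 8.26, 8.28 and 8.43 on the TAC arrays and 8.10, 8.18 and 8.06 on the CnA arrays. Every array of both models thus stood above every WT array by more than 2 log2 units, and the WT spread was wider than that of either model. The rise was 2.94 (SE 0.18, 7.7-fold, limma adjusted p = 4.5e-06, n = 3) in TAC and 2.74 (SE 0.18, 6.66-fold, adjusted p = 8.8e-06) in CnA. Between the models the difference was -0.21 (limma adjusted p = 0.47).

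The Ccl21c and Gm13304 probes, annotated to other copies in this family, also stood higher on every array of both models than on any WT array. Ccl21c had 6.11, 5.42 and 5.40 in WT, 8.51, 8.53 and 8.65 in TAC and 8.57, 8.44 and 8.41 in CnA. Gm13304 had 6.11, 5.37 and 5.25 in WT, 8.54, 8.56 and 8.61 in TAC and 8.49, 8.31 and 8.41 in CnA. The changes against WT were 2.92 and 2.83 for Ccl21c and 2.99 and 2.83 for Gm13304. The probe sequences are not used here, and copies this alike may share signal, so that these 3 probes cannot be counted as independent genes. Quantile normalization between arrays lowered the TAC changes to 2.26 for Ccl21b, 2.16 for Ccl21c and 2.23 for Gm13304, and all 3 stayed called. Ccl28, an epithelial chemokine for CCR10 and CCR3, was much less changed. It rose by 0.88 in TAC (SE 0.26, limma adjusted p = 0.018, or 0.093 with slide row as a block), where TAC replicate 3 stood above the other TAC arrays at -1.88 against -2.86 and -2.88, and it differed by 0.52 in CnA (adjusted p = 0.12).

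**Figure D2:**
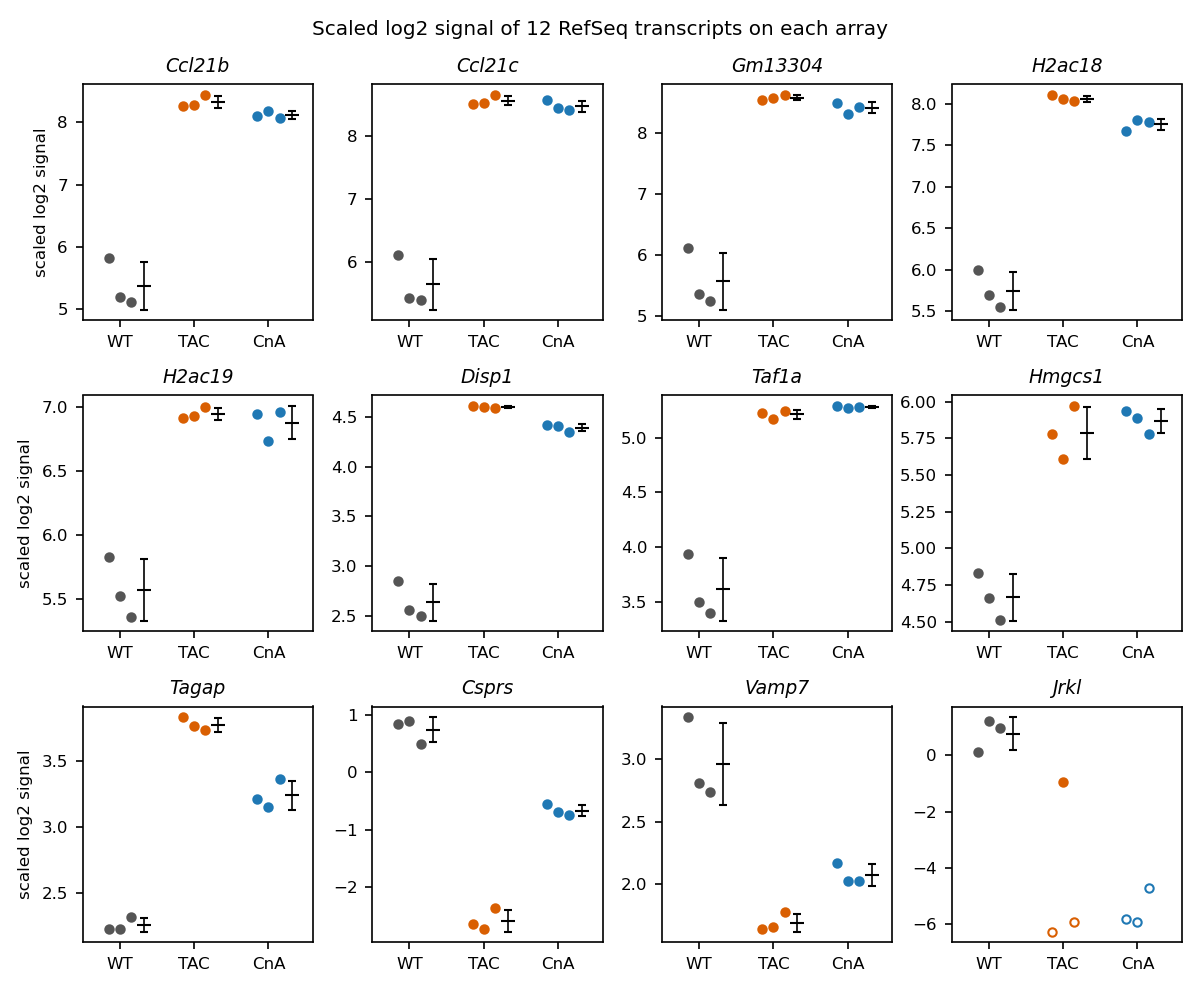
Scaled log2 signal (vertical axis, log2 units, a range of its own in each panel) of 12 RefSeq transcripts on each of the 3 arrays per group, with open points where the array was not well above background and a bar for the mean ± SD where all 3 arrays of the group were. The first 9 transcripts are higher on all TAC and CnA arrays than on any WT array, and Csprs, Vamp7 and Jrkl are lower on all of them.

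Around the Ccl21 copies on chromosome 4, all 5 neighbouring RefSeq transcripts rose in both models, where 42.9% and 38.1% of all probes on all arrays were higher. Besides Gm13304 and Ccl21b these were Gm13305, Gm21953 and Fam205a2, and here neighbours are genes with at most 10 other table genes between them. Gm13304 and Ccl21b are CCL21 probes described above and cannot be counted as independent genes, so the 5 rises are not 5 separate results. Gm13305 lay at 6.05, 5.35 and 5.15 in WT, 7.31, 7.25 and 7.39 in TAC and 7.36, 7.38 and 7.33 in CnA, a rise of 1.80 and 1.84 (1.16 in TAC under quantile normalization). Fam205a2 rose by 1.96 in TAC and 1.18 in CnA, and the direct comparison called it lower in CnA than in TAC by -0.78 (SE 0.18, limma adjusted p = 0.019). Gm21953 rose by 0.78 and 0.41.

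A pair of core histone genes on chromosome 3 also rose in both models. H2ac18 and H2ac19 encode histone H2A, a subunit of the nucleosome, and lie near each other. H2ac18 had 6.0, 5.7 and 5.55 on the WT arrays, 8.10, 8.05 and 8.03 on the TAC arrays and 7.67, 7.80 and 7.78 on the CnA arrays. H2ac19 had 5.83, 5.52 and 5.36 in WT, 6.91, 6.93 and 7.0 in TAC and 6.94, 6.73 and 6.96 in CnA. No model array overlapped WT for either gene. The rise of H2ac18 was 2.31 in TAC (SE 0.13, 4.96-fold, limma adjusted p = 2.7e-06) and 2.00 in CnA (SE 0.13, 4.0-fold, adjusted p = 7.3e-06). That of H2ac19 was 1.37 and 1.31. Quantile normalization gave 1.62 and 0.77 for H2ac18 and H2ac19 in TAC, both still called. The other H2A genes of the set, H2ac23 and the Y-linked H2al2b, were not called in any comparison. For both, CnA replicate 3 lay more than 1 log2 unit below the other CnA arrays, and its H2ac23 signal was not well above background.

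The promoters of H2ac18 and H2ac19 are shown because their probes moved together. Signal shared between these probes was not tested, so the pair cannot be counted as independent genes. RefSeq windows of GRCm38.p6 from 250 bases before to 50 bases after the annotated start are written 5′ to 3′, with CCAAT and TATAAA, searched on both strands, in capitals.

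H2ac18 (chr3:96245247-96245546, plus strand): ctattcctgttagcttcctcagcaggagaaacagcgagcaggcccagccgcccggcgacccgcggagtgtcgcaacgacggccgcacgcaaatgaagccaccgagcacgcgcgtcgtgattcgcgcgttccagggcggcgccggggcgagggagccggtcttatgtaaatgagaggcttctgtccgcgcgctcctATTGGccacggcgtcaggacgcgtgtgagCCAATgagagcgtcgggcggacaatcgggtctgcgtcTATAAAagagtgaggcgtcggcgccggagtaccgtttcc

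H2ac19 (chr3:96240325-96240624, minus strand): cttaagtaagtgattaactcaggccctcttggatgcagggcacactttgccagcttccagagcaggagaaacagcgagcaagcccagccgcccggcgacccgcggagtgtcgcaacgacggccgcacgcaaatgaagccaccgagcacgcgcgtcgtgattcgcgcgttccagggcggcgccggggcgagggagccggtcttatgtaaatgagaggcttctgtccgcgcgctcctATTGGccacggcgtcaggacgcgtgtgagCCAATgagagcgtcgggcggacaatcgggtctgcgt

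Aligned end to end, 256 of 300 bases were identical. Each window held CCAAT at 2 places, counting its reverse complement ATTGG, and the H2ac18 window also held TATAAA. This TATAAA lay after the annotated start, within the last 50 bases of the window. At least 1 CCAAT on either strand was found in 37.4% of the 32851 windows of this length in the table, and TATAAA in 13.6%, so that neither word is rare. The H2ac19 window ends before the stretch that holds TATAAA in H2ac18.

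On chromosome 1, 6 neighbouring genes were measured on all arrays, and each model called 4 of them higher and 1 lower. Of all such probes, 61.4% were called in TAC and 57.4% in CnA. Disp1, whose product releases lipid-modified Hedgehog ligand from cells, had 2.85, 2.56 and 2.50 in WT, 4.61, 4.60 and 4.59 in TAC and 4.42, 4.41 and 4.35 in CnA. It rose by 1.96 in TAC (SE 0.11, 3.89-fold, limma adjusted p = 3.2e-06) and by 1.76 in CnA. Taf1a, a subunit of the factor that recruits RNA polymerase I to ribosomal RNA genes, had 3.94, 3.50 and 3.40 in WT, 5.23, 5.17 and 5.25 in TAC and 5.29, 5.27 and 5.28 in CnA. Its rises were 1.60 and 1.67, and CnA differed from TAC by 0.07 (SE 0.14, limma adjusted p = 0.79).

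The other neighbours changed less. Hhipl2, a relative of the Hedgehog-interacting protein, rose by 0.66 in TAC and 1.38 in CnA, and the CnA arrays, at -0.50, -0.65 and -0.62, stood above the TAC arrays, at -1.40, -1.23 and -1.32. That difference of 0.72 was itself called (SE 0.14, limma adjusted p = 0.0094). Brox, an ESCRT-linked protein of the nuclear envelope, rose by 0.51 in TAC and had 0.02 in CnA (adjusted p = 0.88), and the model difference of -0.49 was called (SE 0.1, adjusted p = 0.013). Under quantile normalization Brox rose by 0.25 in TAC (limma adjusted p = 0.035), near the median shift of 0.22 in that scaling, and had -0.17 in CnA (adjusted p = 0.11). Mia3, which loads collagen for export from the endoplasmic reticulum, rose by 0.86 in CnA and had 0.28 in TAC (adjusted p = 0.22), with no call between the models (0.58, adjusted p = 0.063). Aida, named for its interaction with axin, fell by 0.49 in TAC and by 0.37 in CnA (limma adjusted p = 0.044, or 0.085 under quantile normalization and 0.12 with slide row as a block).

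A group of 7 neighbouring genes on chromosome 13 gave 4 rises and 1 fall in TAC and 2 rises in CnA among the 6 measured, beside the same 61.4% and 57.4% of all probes called in either direction. Hmgcs1 makes HMG-CoA for cholesterol synthesis in the cytosol. Its signal was 4.83, 4.66 and 4.51 in WT, 5.78, 5.61 and 5.97 in TAC and 5.94, 5.89 and 5.78 in CnA. It rose by 1.12 in TAC (SE 0.13, 2.17-fold, limma adjusted p = 0.00014) and by 1.20 in CnA (SE 0.13, 2.3-fold, adjusted p = 0.00012), with no overlap with WT in either model. Under quantile normalization the rises of Hmgcs1 were 0.66 and 0.80, both still called. B020031M17Rik behaved otherwise, at 2.57, 1.16 and 0.81 in WT, 3.69, 3.48 and 3.47 in TAC and 1.68, 2.00 and 1.45 in CnA. It rose by 2.03 in TAC (SE 0.4, limma adjusted p = 0.0027), while CnA overlapped WT with a difference of 0.19 (adjusted p = 0.7), and the models differed by -1.84 (adjusted p = 0.016). WT replicate 1 lay well above the other WT arrays here.

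The remaining genes of this group moved less. Tcstv1, expressed at the embryo's 2-cell stage, rose by 0.66 and 0.45 (limma adjusted p in CnA 0.016, or 0.063 with slide row as a block). Zfp131, a zinc finger protein, fell by 0.52 in TAC (limma adjusted p = 0.0094) and had -0.05 in CnA, and the difference of 0.47 between the models was called at an adjusted p of 0.044, or 0.074 under quantile normalization. Nim1k, a kinase related to AMPK, was not called, and AF067063 was not well above background on any array. Elsewhere on chromosome 13, BC147527 and Tcstv3 were both lower in CnA than in WT. BC147527 had -0.80, -1.32 and -1.12 in WT, -1.29, -1.30 and -1.18 in TAC and -2.03, -1.59 and -2.59 in CnA, a change of -0.99 in CnA against WT (SE 0.24, limma adjusted p = 0.0082). Tcstv3 changed by -0.52 in CnA, and that change was 0.00 with normexp background correction (adjusted p = 0.99), so its direction was not stable to processing.

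A few rises lay outside these groups. Tagap encodes a GTPase-activating protein of activated T cells. It had 2.23, 2.23 and 2.32 in WT, 3.83, 3.76 and 3.73 in TAC and 3.21, 3.15 and 3.36 in CnA, so that the 3 groups did not overlap. It rose by 1.51 in TAC (SE 0.1, 2.86-fold, limma adjusted p = 5.7e-06) and by 0.98 in CnA (SE 0.1, adjusted p = 7e-05), and was lower in CnA than in TAC by -0.54 (adjusted p = 0.0066). T and B cell markers could not be named on the array, and the part of such cells was not tested.

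Amy2a5, a pancreatic amylase gene, rose by 1.01 in TAC and 1.37 in CnA from -1.50, -1.84 and -1.95 in WT. Ulbp1, a ligand of the natural killer cell receptor NKG2D, rose by 0.45 and 0.66. Pramel39 rose by 0.82 in TAC (limma adjusted p = 0.01, or 0.064 with slide row as a block) and 1.46 in CnA. The unmatched NM_001177418 rose by 1.41 in both models.

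Some transcripts had more than 1 probe, which gives an internal check. Both 4930526I15Rik probes rose by nearly the same amount, 1.52 and 1.47 in TAC and 1.17 and 1.14 in CnA. The 3 probes of Ppp2r3d, which encodes a regulatory subunit of protein phosphatase 2A, gave -0.36, -0.35 and -0.37 in TAC against WT, with limma adjusted p of 0.035, 0.036 and 0.048. In CnA against WT they gave 0.16, 0.25 and 0.20, none of them called, and CnA lay above TAC by 0.53, 0.60 and 0.57, all called. None of the 3 probes kept its call in TAC against WT with normexp background correction, where the changes were -0.16, -0.18 and -0.24. With slide row as a block, all but the first lost it (limma adjusted p = 0.11 and 0.082). The Gm3286 probes disagreed in sign in TAC, at 0.49 and -0.24, and neither was called. These Ppp2r3d and 4930526I15Rik genes are neighbours on chromosome 9, together with the uncalled Nlrp4g. Probes of 1 gene share their target and are not independent.

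**Figure D3:**
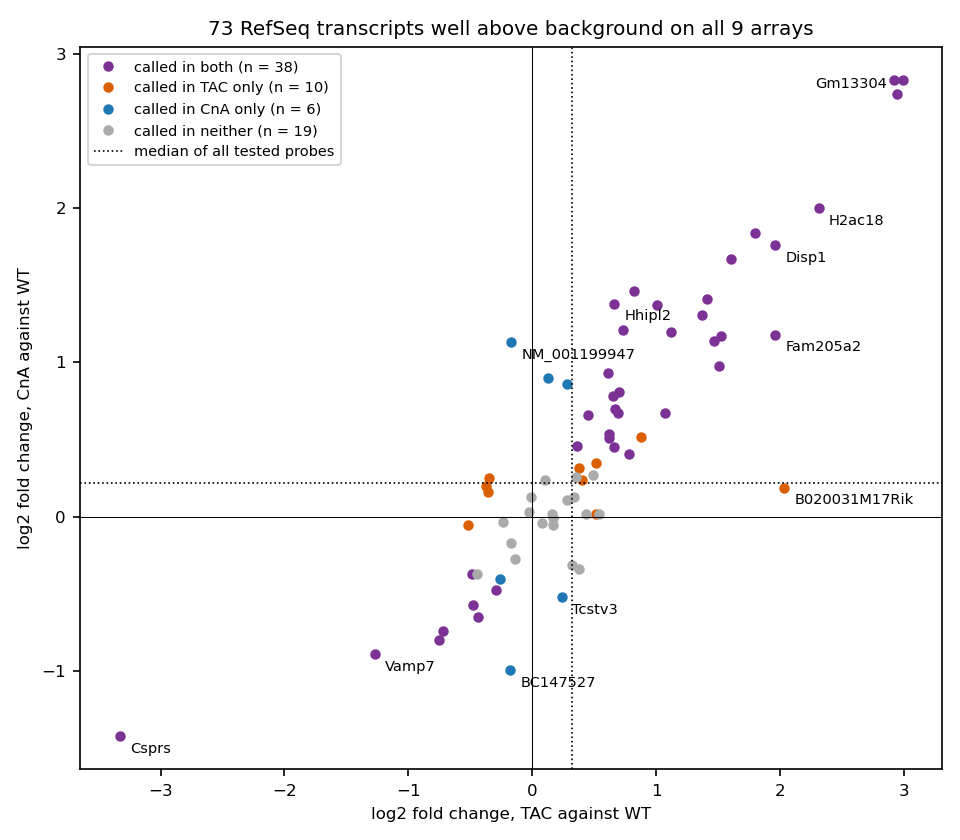
Log2 fold change of the 73 RefSeq transcripts well above background on all 9 arrays, in TAC against WT (horizontal) and CnA against WT (vertical). Colours mark in which comparison a transcript was called, and dotted lines mark the median of all tested probes, 0.32 and 0.22. Both axes share the 3 WT arrays, so that nearness to the diagonal is no independent evidence. Gm13304 and its neighbours lie at the upper right, Csprs at the lower left.

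The largest fall among the transcripts measured on all arrays was that of Csprs, a component of the Sp100-rs repeat region of chromosome 1. It had 0.84, 0.90 and 0.50 in WT, -2.65, -2.74 and -2.37 in TAC and -0.56, -0.69 and -0.75 in CnA. The groups did not overlap, and CnA lay between WT and TAC. The change was -3.33 in TAC (SE 0.15, a 10.1-fold fall, limma adjusted p = 9.4e-07) and -1.42 in CnA (SE 0.15, adjusted p = 8.9e-05), and CnA exceeded TAC by 1.92 (SE 0.15, adjusted p = 0.00011). Normexp background correction reduced these to -2.24 in TAC and to 1.06 between the models, in the same direction.

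Vamp7, an X-linked SNARE protein of vesicle fusion, had 3.34, 2.81 and 2.74 in WT, 1.64, 1.65 and 1.77 in TAC and 2.17, 2.02 and 2.02 in CnA. It fell by 1.27 in TAC (a change of -1.27, SE 0.16, limma adjusted p = 0.00023) and by 0.89 in CnA (SE 0.16, adjusted p = 0.0018). Zf12 fell by 0.72 and by 0.74, NM_001008551 by 0.75 and by 0.80, and NM_011667 by 0.44 and by 0.65. E330014E10Rik fell by 0.29 in TAC and by 0.47 in CnA. With slide row as a block, neither NM_011667 nor E330014E10Rik was called in TAC (limma adjusted p = 0.063 and 0.097). The rest of the X-linked genes measured on all arrays included Spry3, an inhibitor of growth factor signalling, and Tmlhe, the first enzyme of carnitine synthesis, and neither was called.

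Jrkl, a chromosome 9 gene related to the jerky gene, was measured in WT and nearly lost in the models. It had 0.12, 1.24 and 0.97 in WT, all well above background, but only TAC replicate 2, at -0.95, was well above background among the 6 model arrays. Jrkl met the filter through WT, its bright group, so its fitted change is not counted here and only a bound is given. WT exceeded CnA by at least 25.4-fold. This bound sets the WT mean of 0.78 against -3.89, the mean on the CnA arrays of the lowest signal still well above background. The measured CnA mean was -5.50. All bounds given here are built in this way. They hold for the processed signal scaled as here, and under another background correction a change can be smaller than its bound. No bound is given for TAC, whose arrays disagreed. Its neighbour Ccdc82 went the other way, rising by 1.07 in TAC and 0.67 in CnA.

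The direct comparison of the models called 14 of the 73 transcripts. Besides Csprs, Hhipl2 and Ppp2r3d, CnA was higher for the unmatched NM_001199947. It had 6.16, 5.64 and 5.64 in WT, 5.61, 5.59 and 5.72 in TAC and 6.89, 6.90 and 7.03 in CnA. On this scale TAC overlapped WT and CnA stood apart. CnA exceeded TAC by 1.30 (SE 0.15, 2.46-fold, limma adjusted p = 0.00085) and WT by 1.13 (SE 0.15, adjusted p = 0.00039). Under quantile normalization TAC was called lower than WT (-0.71, limma adjusted p = 0.00063). CnA then exceeded WT by 0.64 (adjusted p = 0.0012) and TAC by 1.36 (adjusted p = 0.00014). Gm21953 was called lower in CnA at an adjusted p of 0.047, or 0.051 under quantile normalization, and Tcstv3 was lower by -0.76 (adjusted p = 0.012).

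For most Y-linked transcripts, CnA stood above both other groups. Many of these genes are ampliconic, that is, present in many near-identical copies on the long arm of the Y chromosome, and the best known, Ssty1, Ssty2 and Sly, act in spermatids. The labels do not give the sex of the animals or the origin of their Y chromosome, and the part of either in these values was not tested. Of the 23 Y-linked transcripts, 21 were well above background on each CnA array, beside 9 to 12 on a WT array and 7 to 13 on a TAC array. The other 85 transcripts showed no such step, with 69 to 73 well above background on a WT array, 71 to 73 on a TAC array and 74 on each CnA array. Every CnA array was well above background and exceeded all the other 6 arrays for 15 of 23 Y-linked transcripts. This held for 11 of the other 85 and for 7.49% of all probes. Copies this alike may share signal, so the Y-linked transcripts cannot be counted as independent genes.

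Restricted to transcripts measured everywhere, the picture was different. This was partly fixed by the filter, which leaves out transcripts detected mainly in CnA. The 7 Y-linked transcripts well above background on all 9 arrays gave 3 calls higher and 2 lower in CnA against WT, 2 higher and 1 lower in TAC against WT, and 1 higher between the models. These counts lie near the shares of all such probes, which were 38.1% and 19.4%, 42.9% and 18.5%, and 9.43%. Gm20806 was higher on every CnA array, at -1.04, -1.06 and -1.28, than on the WT arrays, at -2.0, -2.17 and -1.91, or the TAC arrays, at -1.88, -1.70 and -2.12. CnA exceeded TAC by 0.78 (SE 0.14, limma adjusted p = 0.0067). Gm20809 rose by 1.21 in CnA (SE 0.21, limma adjusted p = 0.0016). In TAC it rose by 0.73 (adjusted p = 0.017, or 0.11 with slide row as a block). Gm20854 rose by 0.70 in TAC and by 0.81 in CnA. Gm20738 went down in both, from 0.56, 0.66 and 0.63 in WT to 0.13, 0.13 and 0.16 in TAC and -0.03, 0.07 and 0.11 in CnA. Its falls were by 0.48 and by 0.57.

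The remaining 16 Y-linked transcripts were not well above background on every array, so that most have only a bound in some group. A total of 7 of them were well above background on all 3 CnA arrays and on none of the other 6. This pattern was shown by 0.274% of all probes and by 1 of the 85 other RefSeq transcripts, Gm16367 on chromosome 5. Signal shared between copies was not tested, so the 7 are not 7 separate results. Gm20877 had -1.91, -2.09 and -2.06 in CnA, Gm20816 -2.05, -2.37 and -2.20, and Gm20867 -2.06, -2.41 and -2.15. By the bound on the processed signal, CnA exceeded WT by at least 4.44-fold, 3.91-fold and 3.9-fold for these. It exceeded TAC by at least 3.11-fold, 2.74-fold and 2.73-fold. The other 4 were Gm20815, Gm20826, Gm20852 and Gm20917, with bounds of 2.38-fold to 3.69-fold over WT and 1.67-fold to 2.59-fold over TAC.

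The named spermatid genes showed partial detection outside CnA. Ssty1 had -1.74, -1.63 and -1.83 in CnA, was well above background on 2 WT arrays and on no TAC array, and exceeded TAC by at least 3.79-fold. Ssty2 had -2.06, -2.02 and -1.68 in CnA, was well above background on 2 TAC arrays and on no WT array, and exceeded WT by at least 4.77-fold. Sly had -3.86, -2.65 and -2.80 in WT and -2.11, -2.01 and -2.17 in CnA, a difference of 1.01 (SE 0.31, limma adjusted p = 0.023, or 0.089 with slide row as a block). Gm20747 was well above background on all 3 WT arrays, 2 TAC arrays and all 3 CnA arrays. Its mean was -3.06 in WT and -1.02 in CnA, a rise of 2.04 (SE 0.35, 4.1-fold, limma adjusted p = 0.0014). Rbm31y and Gm20736 were the Y-linked transcripts not detected in CnA.

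**Figure D4:**
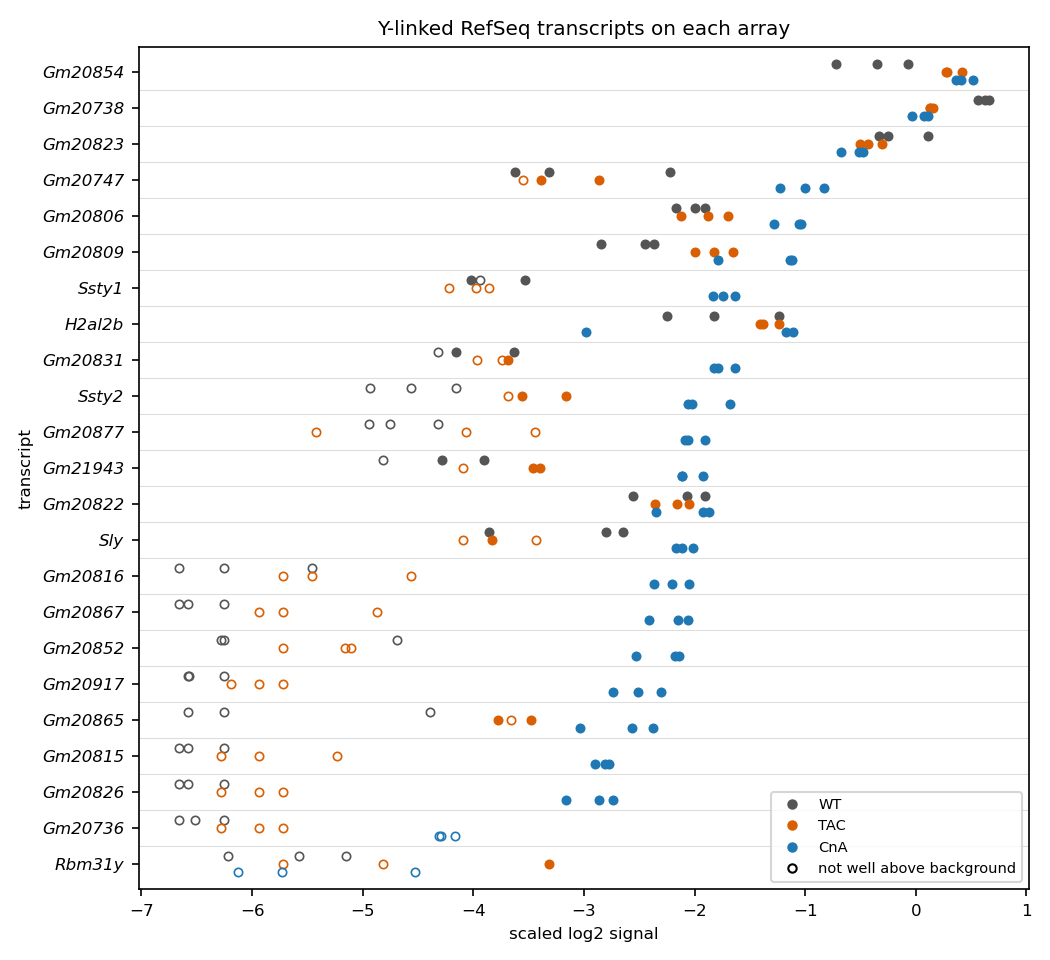
Scaled log2 signal (horizontal axis) of the 23 Y-linked RefSeq transcripts on each array, in order of the CnA mean. Filled points are well above background and open points are not, and open points have no order among themselves. The CnA points lie to the right of the WT and TAC points for most transcripts, while those at the top of the plot, such as Gm20854, Gm20738 and Gm20823, are well above background on all arrays.

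The annotated starts of these Y-linked genes fell into families of sequence. Both families described here held transcripts seen in CnA alone and transcripts seen on all arrays. RefSeq windows were found for 20 of the 23. A total of 12 had at least 200 of 300 bases identical with the window of Ssty2, 5 with that of Gm20917, and 3 with neither. Well above background on all arrays were 2 of the 12 in the Ssty2 family and 3 of the 5 in the Gm20917 family. The shares thus differed, and a link between family and array pattern was not tested. From each family, a transcript seen in CnA alone is shown with one seen on all arrays, in GRCm38.p6 and 5′ to 3′, with the bases that found no identical partner in the other in capitals.

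Gm20816 (chrY:68537705-68538004, plus strand): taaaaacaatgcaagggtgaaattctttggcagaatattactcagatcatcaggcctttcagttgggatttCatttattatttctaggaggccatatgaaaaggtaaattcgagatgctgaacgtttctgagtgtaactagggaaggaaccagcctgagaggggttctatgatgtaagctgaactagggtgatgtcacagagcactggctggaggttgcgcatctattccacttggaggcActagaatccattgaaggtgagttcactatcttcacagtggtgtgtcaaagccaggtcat

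Gm20823 (chrY:62464796-62465095, minus strand): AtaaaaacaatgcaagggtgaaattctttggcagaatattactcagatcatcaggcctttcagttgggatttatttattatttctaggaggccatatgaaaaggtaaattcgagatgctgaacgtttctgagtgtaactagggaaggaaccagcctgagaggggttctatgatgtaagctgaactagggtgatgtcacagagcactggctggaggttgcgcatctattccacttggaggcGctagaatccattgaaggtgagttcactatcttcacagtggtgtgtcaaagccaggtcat

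Gm20917 (chrY:79149738-79150037, minus strand): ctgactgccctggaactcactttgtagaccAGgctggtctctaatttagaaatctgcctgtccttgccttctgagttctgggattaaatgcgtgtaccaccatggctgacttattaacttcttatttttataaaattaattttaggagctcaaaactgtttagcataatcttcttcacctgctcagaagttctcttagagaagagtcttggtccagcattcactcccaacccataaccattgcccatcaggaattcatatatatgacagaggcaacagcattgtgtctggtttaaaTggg

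Gm20854 (chrY:85529470-85529769, minus strand): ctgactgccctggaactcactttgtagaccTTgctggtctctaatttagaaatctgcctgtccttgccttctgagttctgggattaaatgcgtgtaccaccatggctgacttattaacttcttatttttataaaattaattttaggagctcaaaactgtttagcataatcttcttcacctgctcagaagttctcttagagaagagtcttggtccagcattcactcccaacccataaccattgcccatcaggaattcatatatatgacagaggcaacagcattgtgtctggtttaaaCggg

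Gm20816 and Gm20823 had 298 of 300 bases identical. Gm20816 was below detection on all WT and TAC arrays. Gm20823 had -0.33, -0.25 and 0.11 in WT, -0.31, -0.43 and -0.50 in TAC and -0.48, -0.51 and -0.68 in CnA. Levels of different probes are not compared here. Gm20823 was lower in CnA than in WT (-0.40, SE 0.14, limma adjusted p = 0.033, or 0.094 with slide row as a block). Gm20917 and Gm20854 had 297 of 300 bases identical, and Gm20854 had -0.07, -0.72 and -0.35 in WT, 0.27, 0.28 and 0.42 in TAC and 0.41, 0.36 and 0.52 in CnA. Gm20816 and Gm20867, whose windows were identical, had the same pattern on the arrays. The windows say nothing about the transcribed part that the probes match, and signal shared between copies was not tested.

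Vomeronasal type 1 receptors, the pheromone receptors of sensory neurons in the nose, made up 13 of the probes, all on chromosome 7. A total of 7 were well above background on all 9 arrays, and 4 of these rose in each model (3 in TAC under quantile normalization) and none fell, beside 42.9% and 38.1% of all such probes called higher. Vmn1r62 had -2.54, -2.63 and -2.68 in WT, -1.95, -1.91 and -2.0 in TAC and -2.06, -1.91 and -1.78 in CnA, rises of 0.67 and 0.70. Vmn1r157 rose by 0.62 and 0.54, Vmn1r241 by 0.65 and 0.78, and Vmn1r243 by 0.36 and 0.46. These rises were small beside those of the chemokines, and that of Vmn1r243 in TAC was close to the shift of the median probe and was not called with slide row as a block (limma adjusted p = 0.066). Vmn1r111, Vmn1r135 and Vmn1r257 were not called.

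Among the other transcripts measured on all arrays, Fam177a2 rose by 0.69 in TAC and 0.67 in CnA, the defensin gene Gm6040 by 0.62 and 0.51, and the unmatched NM_009485 by 0.61 and 0.93. The call of Gm6040 in CnA was lost under quantile normalization (limma adjusted p = 0.075). Gm6710, Gm10488 and Gm14819 were called higher in TAC, by 0.40, 0.38 and 0.51, and in CnA they had 0.24, 0.32 and 0.35, not called. None of these 3 was called in TAC with slide row as a block (limma adjusted p = 0.075, 0.21 and 0.15). A total of 19 of the 73 were called in no comparison. Tsnax, the partner of the RNA-binding protein translin, was one of them, at 5.44, 5.20 and 5.02 in WT, 5.26, 5.34 and 5.37 in TAC and 5.52, 5.44 and 5.42 in CnA. Under quantile normalization its difference between TAC and WT turned to -0.39 and was called (limma adjusted p = 0.0068). Others were Dhrsx, a dehydrogenase, AY761185, Gm4312, Gm10147, Gm16513, NM_009268 and NR_037700. Outside the Y chromosome, Tdpoz5, Btbd35f4, Gm10487, Vmn1r186, Vmn1r187 and Vmn1r259 were well above background on all CnA arrays and on 1 or 2 WT arrays. The filter could pass them through their bright group, so their changes are not counted here.

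A total of 12 RefSeq transcripts did not reach the detection needed for a test in any group. They were AF067063, Defb33, Gm10665, Gm1140, Gm20736, Mucl2, Obox2, Ott, Pramel37, Rbm31y, Vmn1r63 and Vmn1r93. For 9 of the 12, no array was well above background.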

How the data were processed

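Agilent Feature Extraction 11.0.1.1 read each array in 1 channel, per the file headers, and the deposited scanner files give each spot's processed intensity after background subtraction, its raw median intensities and 0 or 1 flags such as well above background. The labels name 2 dyes, but the files hold 1 channel, and each array was used as a 1-colour array. The authors also deposited lncRNA and mRNA tables of log2 values, with no method given in the sources used here. Quantile normalization of the log2 processed signals came within a median difference of 0.00291 or less of these values on every array. Per the labels' protocols, ribosomal RNA was removed and cRNA was made by random priming.

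Of the 59709 probes, 130 with an outlier flag were left out, and 44223 were tested because all 3 arrays of at least 1 group were well above background. Log2 processed signals minus the array's 75th percentile were fitted with limma 3.58.1 in R 4.3.3 (lmFit, eBayes, all 9 arrays, 1 coefficient per group). The fit was tested on simulated data. Precision is limited by the 3 arrays per group. The alternatives were other scalings, background correction, filters, weights, blocks and leaving out each array.

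The members, gene lists and tests were chosen with earlier results of these data known. Genes named were the 12 largest called rises and falls per comparison with no overlap between groups, those detected in 1 group and not in another, and others of the same family or neighbourhood, chosen after their values were seen. The promoter families were also defined after seeing the data.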

Additional observations from a re-analysis of the deposited data

How the results depend on the processing

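Of 1741 values of named called transcripts recomputed under other settings, 1555 kept their direction and call, 185 lost the call and 1 turned (Tcstv3 in CnA against WT, 0 with normexp). With at least a 2-fold change required as well, the calls in TAC and CnA against WT and between the models were 25, 40 and 17 of the 96 tested, beside 61, 66 and 28, and 19, 19 and 3 of the 73 measured on all arrays, beside 48, 44 and 14. Slide row 1 alone, chosen after seeing the data, gave 17 and 27 of 96, and 12 and 13 of 73, against WT, where fewer arrays were fitted. In CnA against TAC, the deposited tables gave 18 of 83 listed and the stricter filter 15 of 73, beside 28 of 96. These sets differ in the transcripts they hold as well as in size. Y-linked transcripts gave 14 of the 28 calls, and the stricter filter kept 7 of the 21 Y-linked ones tested. Array weights gave 25 of 73, the cause of which was not tested. Leaving out 1 array gave 52 to 60, 61 to 68 and 21 to 35 calls of the 96, and 40 to 49, 41 to 47 and 6 to 21 of the 73. The lowest, 6, came without TAC replicate 1 and the highest, 21, without WT replicate 1, and 7 remained without TAC replicate 2, 8 without TAC replicate 3 and 8 without CnA replicate 1. The falls of Ppp2r3d in TAC and the model differences of Gm21953, Zfp131, Fam205a2 and B020031M17Rik lost their call without 1 or another of 4 or more arrays. The replicate numbers did not pair the arrays (correlations of same-numbered deviations -0.22 to -0.02), and a replicate block gave 50, 64 and 25 calls, and 41, 42 and 11 of the 73. In TAC it left NM_011667, E330014E10Rik and 2 of the 3 Ppp2r3d probes uncalled. Normexp shrank the fitted CnA change of the dim Y-linked transcripts. That of Gm20816 against WT went from 3.92 to 1.42, still called but smaller than its bound above. That of Gm16367 on chromosome 5 against TAC went from 1.59 to 0.17, no longer called. Dim signal limits the 35 transcripts not measured on all arrays.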

Other observations

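CnA replicate 3, the only array of the second scan, lay apart from the other CnA arrays for some uncalled transcripts. It had -3.52 for Vmn1r135 beside -2.17 and -1.74 on the other CnA arrays, -1.73 for Gm16513 beside -0.22 and -0.31, and -2.98 for H2al2b beside -1.11 and -1.17. In WT, replicate 1 was the highest of its group for all 3 CCL21 probes, both H2ac genes, Disp1, Taf1a, Vamp7 and B020031M17Rik, transcripts that moved in either direction. The X-linked Gm10487 was well above background on 1 WT, 1 TAC and all 3 CnA arrays and had -2.87, -2.44 and -2.65 in CnA. Gm10488, whose promoter window shared 269 of 300 bases with it, was measured on all arrays. It lay at -0.60, -0.70 and -0.94 in CnA. These levels come from different probes and are not compared.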
